A study of Drosophila melanogaster with 4 samples.

Results

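Outside chromosome X, 464 genomic regions of Drosophila melanogaster S2 cells carried a chromatin immunoprecipitation (ChIP-seq) peak of Ibf1, of Ibf2 and of CP190. They were found by pooling the 3 deposited peak lists, merging peaks that shared at least 1 bp, and keeping the merged regions that held a peak of every list and did not lie on X. The 464 regions were 24.6% of the 1889 merged regions outside X (464 of 1889, 95% exact interval 22.6 to 26.6), and the whole series comprised 2233 merged regions. The regions were chosen by the presence of a called peak in each list, so their number and their peak widths are given as a description and were not tested.

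The series held 1 ChIP library for each of 3 antibodies in the same cultured line, and 1 Input library of genomic DNA that served as the reference for peak calling. The Ibf1 library was labelled CG8436 and the Ibf2 library CG9740, both made with rat polyclonal antibodies, and the CP190 library was made with a rabbit polyclonal antibody. S2 cells are an embryo-derived line with blood cell-like properties. The labels named no genotype or treatment for any library. With 1 library per antibody there was no replicate error, the lists gave positions only, and the read depth behind each peak was unknown. Intervals on shares therefore cover counting error only.

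Insulators are DNA elements that keep an enhancer from acting on promoters beyond them or separate neighbouring chromatin domains. In flies they are bound by sequence-specific DNA-binding proteins, which bring in shared cofactors. CP190 is such a cofactor, with zinc fingers and a BTB domain through which it contacts other proteins, and it is found with several insulator proteins including CTCF, Su(Hw) and BEAF-32. Ibf1 and Ibf2 are DNA-binding insulator factors that interact with CP190.

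The word autosomal applied to most of the 464 regions, but not to all of them. Arms 2L, 2R, 3L, 3R and 4 held 429, and 4 lay on heterochromatic scaffolds assigned to chromosomes 2 and 3 (1 on 2RHet and 3 on 3RHet). The other 31 lay in U and Uextra, sequence of the dm3 assembly that is assigned to no chromosome, with 4 regions in U and 27 in Uextra. Whether those 31 are autosomal cannot be told from the lists. Placed and unplaced regions are therefore also described separately. No annotation or genome of dm3 was used here, so the regions are identified by their position and no gene or sequence is named for them.

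The regions held most of the Ibf1 peaks, a majority of the Ibf2 peaks and a minority of the CP190 peaks found outside X. For Ibf1 the regions contained 468 of 556 peaks (84.2%, 95% exact interval 80.9 to 87.1). For Ibf2 they contained 466 of 699 (66.7%, 63.0 to 70.2), and for CP190 465 of 1735 (26.8%, 24.7 to 29.0). Almost every region had a simple make-up, with exactly 1 peak of each list in 458 of the 464. The remaining 1425 regions outside X comprised 1187 with CP190 alone, 83 with CP190 and Ibf2, 81 with Ibf1 and Ibf2, 69 with Ibf2 alone and 5 with Ibf1 alone. No region outside X held CP190 with Ibf1 and without Ibf2.

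Within the 464 regions the Ibf1 peak was usually the narrowest (369 regions, 79.5%, 75.6 to 83.1). The CP190 peak was the widest in a smaller majority (266, 57.3%, 52.7 to 61.9) and the narrowest in 92 (19.8%, 16.3 to 23.8). Ibf1 peaks ranged from 3 to 1292 bp with a median of 249.5 bp (interquartile range 180 to 299). Ibf2 peaks ranged from 62 to 1415 bp with a median of 309 bp (251.8 to 374). CP190 peaks ranged from 10 to 1424 bp with a median of 324 bp (265.5 to 395). The 3 ranges overlapped almost wholly, and the order of the medians was also the commonest order within a region. In 264 regions (56.9%, 52.3 to 61.5) the CP190 peak was wider than the Ibf2 peak, which was wider than the Ibf1 peak. In 105 regions Ibf2 was at least as wide as CP190 and both were wider than Ibf1, and in 81 CP190 was no wider than Ibf1 and Ibf2 was the widest. Ibf1 exceeded Ibf2 in 14 regions (3.02%, 1.66 to 5.01), of which 12 lay in U and Uextra.

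The widths of the same peak lists were smaller in most other classes of region, given here as a description because width comes from the same calls that chose the regions. Ibf2 peaks had a median of 309 bp in the 464 regions, against 105 bp where CP190 was called without Ibf1 (n = 83), 236 bp where Ibf1 was called without CP190 (n = 81) and 103 bp where Ibf2 stood alone (n = 69). Ibf1 peaks had a median of 249.5 bp, against 119 bp in the 81 regions with Ibf2 and without CP190. CP190 peaks had a median of 324 bp, against 311 bp beside Ibf2 without Ibf1 and 251 bp where CP190 stood alone (n = 1187). For CP190 the interquartile ranges of the 464 regions and of the 83 regions with Ibf2 alone beside it (272.5 to 385 bp) nearly coincided, while for Ibf2 those of the same 2 classes did not overlap.

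**Figure D1:**
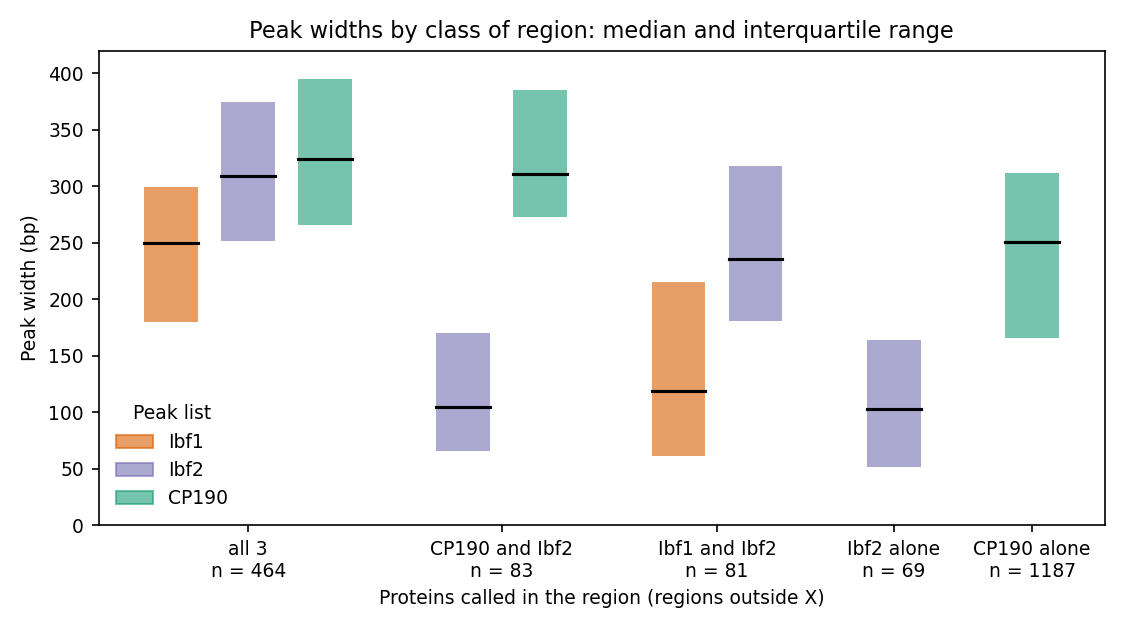
Peak width in bp (vertical axis) by class of region outside X (horizontal axis, n regions below each class), where each box spans the interquartile range, the black line is the median and colour marks the peak list. Regions with all 3 proteins had medians of 249.5 bp for Ibf1, 309 bp for Ibf2 and 324 bp for CP190, and Ibf2 peaks without an Ibf1 peak had medians of 105 and 103 bp. The 5 regions with Ibf1 alone are not drawn.

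The 3 peaks of a region were stacked about nearly the same centre. The rule kept only peaks joined by shared bases, which limits how far apart midpoints can lie, so the offsets are a description. The midpoint of the Ibf1 peak lay a median of 8.5 bp from that of the Ibf2 peak (interquartile range 3.5 to 18.1). It lay a median of 18 bp from the CP190 midpoint (8 to 41), and the Ibf2 midpoint lay 19.8 bp from the CP190 midpoint (9.38 to 39.5). In regions with 1 peak of each list the largest offsets were 180.5 bp between Ibf1 and Ibf2, 391 bp between Ibf1 and CP190 and 337 bp between Ibf2 and CP190. All 3 midpoints fell within 50 bp of each other in 338 regions (72.8%, 68.6 to 76.8). The CP190 midpoint lay outside the Ibf2 peak in 8 regions and outside the Ibf1 peak in 51 (11.0%, 8.29 to 14.2). The 2 sides were taken about equally often, since the Ibf1 midpoint had a lower coordinate than the CP190 midpoint in 224 regions and a higher one in 234. Strand was not part of the lists, so sides refer to the reference coordinate alone.

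Around this common centre the Ibf1 peak was nested in the Ibf2 peak, whereas for Ibf2 and CP190 no single arrangement prevailed. In the 458 regions with 1 peak of each list, Ibf1 was contained within Ibf2 in 432 (94.3%, 91.8 to 96.3). The Ibf2 peak lay inside the CP190 peak in 174 (38.0%, 33.5 to 42.6), the CP190 peak lay inside the Ibf2 peak in 117 (25.5%, 21.6 to 29.8), and neither contained the other in 167 (36.5%, 32.0 to 41.1). A full nest of Ibf1 inside Ibf2 inside CP190 was present in 171 regions (37.3%, 32.9 to 41.9). The Ibf2 peak extended beyond the Ibf1 peak by a median of 26 bp at the lower edge and 26 bp at the higher edge. The CP190 peak extended beyond the Ibf2 peak by a median of 6 bp at either edge, with interquartile ranges of -21 to 33 bp and -26 to 40 bp, a negative value meaning that Ibf2 reached farther.

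**Figure D2:**
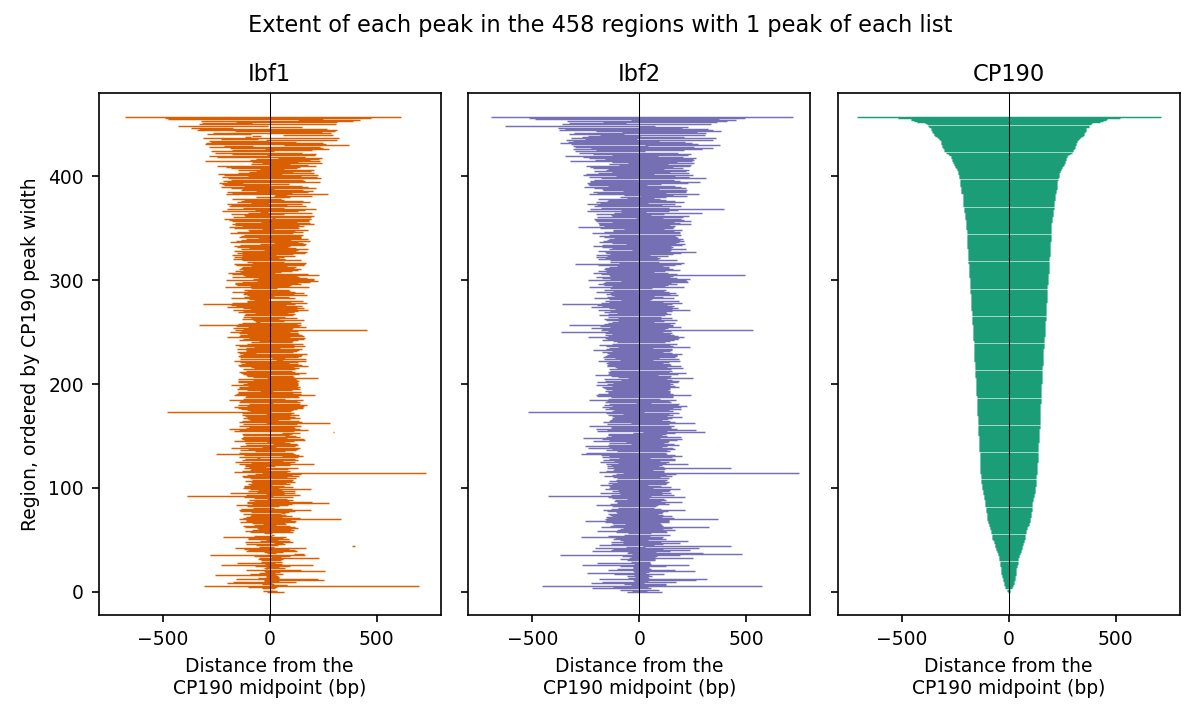
Extent of the Ibf1, Ibf2 and CP190 peaks in the 458 regions with 1 peak of each list, drawn as 1 line per region at its distance in bp from the CP190 midpoint (horizontal axis), with regions ordered by CP190 peak width (vertical axis). The Ibf1 and Ibf2 lines follow each other, including the few that reach far beyond a narrow CP190 peak, and most lines straddle the CP190 midpoint.

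The stretch covered by all 3 peaks at once had a median length of 234 bp (interquartile range 155 to 289, highest 1292), and it was 100 bp or longer in 387 regions (83.4%, 79.7 to 86.7). It made up a median of 65.1% of the merged region. Over all 464 regions it summed to 106.2 kb, or 58.4% of their 181.8 kb. In 307 of the 458 regions with single peaks (67.0%, 62.5 to 71.3) the shared stretch was simply the whole Ibf1 peak.

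Few regions lay at the very limit of the rule of 1 shared bp. The stretch covered by all 3 peaks was under 50 bp in 30 of the 464 (6.47%, 4.40 to 9.10). With peaks under 50 bp left out, 436 regions remained. In 4 regions no base was covered by all 3 peaks, because the Ibf2 peak bridged an Ibf1 and a CP190 peak that shared no base. On 2L at 5270260 to 5270790 the peaks joined in this way measured 47 bp for Ibf1, 515 bp for Ibf2 and 102 bp for CP190. On 2L at 7447947 to 7448131 an Ibf1 peak of 4 bp began at the base after the end of a CP190 peak of 15 bp, both under an Ibf2 peak of 185 bp. The others lay on 2R at 13380496 to 13380991, with 15, 414 and 129 bp for Ibf1, Ibf2 and CP190, and on 3L at 14506191 to 14506641, with 6, 289 and 287 bp. Just outside the rule, 4 of the 164 regions with exactly 2 of the lists had a peak of the missing list within 500 bp. The nearest was a region in U at 6833449 to 6833742, with Ibf1 and Ibf2 and a CP190 peak 39 bp away. Next came one on 3L at 16045229 to 16045626, with a CP190 peak 75 bp away. The third lay on 3R at 23126326 to 23126579, with a CP190 peak 308 bp away. That CP190 peak, of 558 bp, already belonged to 1 of the 464 regions, at 23126888 to 23127445. For the 164 as a whole the missing peak lay a median of 28.4 kb away.

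Regions were also ranked by the width of their narrowest peak, a choice that favours 3 peaks of similar width. The 8 ranked first lay on 2R (4 regions), 3R (3 regions) and 2L (1 region). On 2R at 21076986 to 21078416 the widths were 1292 bp for Ibf1, 1415 bp for Ibf2 and 1424 bp for CP190. The second in rank lay on 3R at 13442205 to 13443245, with 965, 1014 and 1041 bp for Ibf1, Ibf2 and CP190. On 3R at 530908 to 531853 the widths were 725, 859 and 919 bp for Ibf1, Ibf2 and CP190, and at 12086067 to 12086951 they were 716, 748 and 885 bp. The next in rank lay on 2R at 1580610 to 1581349, with 658 bp for Ibf1, 721 bp for Ibf2 and 726 bp for CP190, and on 2L at 21683206 to 21683971, with 643, 699 and 766 bp. The last pair lay on 2R, at 20898923 to 20899615, with 639, 680 and 663 bp for Ibf1, Ibf2 and CP190, and at 20972968 to 20973694, with 599, 669 and 727 bp. Ibf1 was the narrowest peak in each of the 8, and CP190 was the widest in all but the region at 20898923, where Ibf2 was. Over all 464 regions Ibf1 was the narrowest in 79.5% and CP190 the widest in 57.3%.

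Other regions were wide through 1 protein, through the Ibf pair, or through broad Ibf2 and CP190 peaks that overlapped only in part. The widest region on 3R, at 4893828 to 4894983, was 1006 bp wide for Ibf1 and 1030 bp wide for Ibf2, with 40 bp for CP190. On 3R at 3605518 to 3606398 the Ibf peaks, 771 bp wide for Ibf1 and 822 bp for Ibf2, were centred 348.5 and 337 bp from the middle of a CP190 peak of 266 bp, 1 of the 3 largest Ibf1 to CP190 offsets. The opposite case was the widest region of 2L, at 73034 to 74170, where 1 Ibf1 peak of 61 bp and 2 Ibf2 peaks of 182 and 176 bp lay under 1 CP190 peak of 1137 bp. On 3L the widest region, at 14182775 to 14183778, had 424 bp for Ibf1, 701 bp for Ibf2 and 754 bp for CP190, with an Ibf2 minus CP190 midpoint offset of -276.5 bp. CP190 was under 50% of the Ibf2 width in 38 regions (8.19%, 5.86 to 11.1) and over 2 times that width in 16 (3.45%, 1.98 to 5.54).

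Repeated peaks of a list were found in 6 regions. In 3 of the 6, a single Ibf2 peak spanned 2 separate Ibf1 peaks. These lay on 2L at 12546584 to 12547305 (Ibf1 peaks of 68 and 181 bp with an Ibf2 peak of 652 bp and a CP190 peak of 722 bp), on 3L at 9504581 to 9505187 (109 and 94 bp, with 607 bp for Ibf2 and 71 bp for CP190) and on chromosome 4 at 1133440 to 1134277 (174 and 134 bp, with 754 bp for Ibf2 and 802 bp for CP190). On 2L at 6356670 to 6357298, 2 CP190 peaks of 46 and 255 bp overlapped 1 Ibf2 peak of 619 bp. In Uextra at 3142014 to 3143023, 2 Ibf1 peaks of 289 and 415 bp paired with 2 Ibf2 peaks of 286 and 417 bp, and 1 CP190 peak of 764 bp joined both pairs. The sixth was the 2L region with 2 Ibf2 peaks described above.

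Widths within a region were correlated in rank, with the highest value for the 2 Ibf peaks. Across the 464 regions Spearman's rho was 0.80 between Ibf1 and Ibf2, 0.41 between Ibf1 and CP190 and 0.46 between Ibf2 and CP190. These are descriptions across sites that share a library, an Input and the local base composition, and the difference between them was not tested. Of the 118 regions at or above the upper quartile of Ibf1 width, 85 were also at or above that of Ibf2 and 60 at or above that of CP190. In 53 regions all 3 peaks reached the upper quartile of their list.

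The median margin between the Ibf1 and Ibf2 peaks changed little with peak size on the placed arms, but its spread and the width ratio did change. The Ibf1 peak had a median of 0.80 times the width of the Ibf2 peak over the 429 regions of 2L, 2R, 3L, 3R and 4 (interquartile range 0.67 to 0.88). When these regions were split into 4 groups by Ibf2 width, Ibf2 extended beyond Ibf1 by a median of 30.5, 23, 26 and 30 bp per edge, from the narrowest group to the widest. The width ratio was 0.68 in the narrowest group (Ibf2 peaks of 71 to 255 bp) and 0.82, 0.84 and 0.84 in the others. Over all 429 the median margin was 27 bp, against 27 bp in the 55 regions with all 3 proteins on X, where the median ratio was 0.77, and 40 bp in the regions with both Ibf proteins and no called CP190 peak on the placed arms (interquartile range 26 to 71.8 bp, 74 regions), where Ibf2 peaks had a median of 241.5 bp.

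In most regions of unplaced sequence the Ibf1 and Ibf2 peaks were of similar width. Over the 31 regions of U and Uextra the median ratio of Ibf1 to Ibf2 width was 0.99 (interquartile range 0.93 to 1.02), and the median margin was 1.5 bp per edge, against 0.80 and 27 bp on the placed arms. The ratio in U and Uextra ran from 0.26 to 4.25. The margin there, negative where Ibf1 reached farther, had an interquartile range of -1 to 6.5 bp. Ibf1 and Ibf2 midpoints lay within 50 bp of each other in 26 of the 31. Ibf1 reached 90% of the Ibf2 width in 25 of the 31 regions (80.6%, 62.5 to 92.5) in U and Uextra, against 62 of 429 (14.5%, 11.3 to 18.1) on the placed arms. Among regions with 1 peak of each Ibf protein, the Ibf1 peak lay inside the Ibf2 peak in 14 of 30 in U and Uextra, against 416 of 425 on the placed arms. In regions with both Ibf proteins and no called CP190 peak the median ratio was 1.35 in the 6 of U and Uextra and 0.58 in the 74 on the placed arms. A CP190 peak lay 39 bp from 1 of those 6. Median widths in U and Uextra were 299 bp for Ibf1, 303 bp for Ibf2 and 305 bp for CP190, against 247, 310 and 327 bp for Ibf1, Ibf2 and CP190 on the placed arms. Unplaced contigs can be short and repeated, and the part of contig ends or repeats in these widths was not tested.

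**Figure D3:**
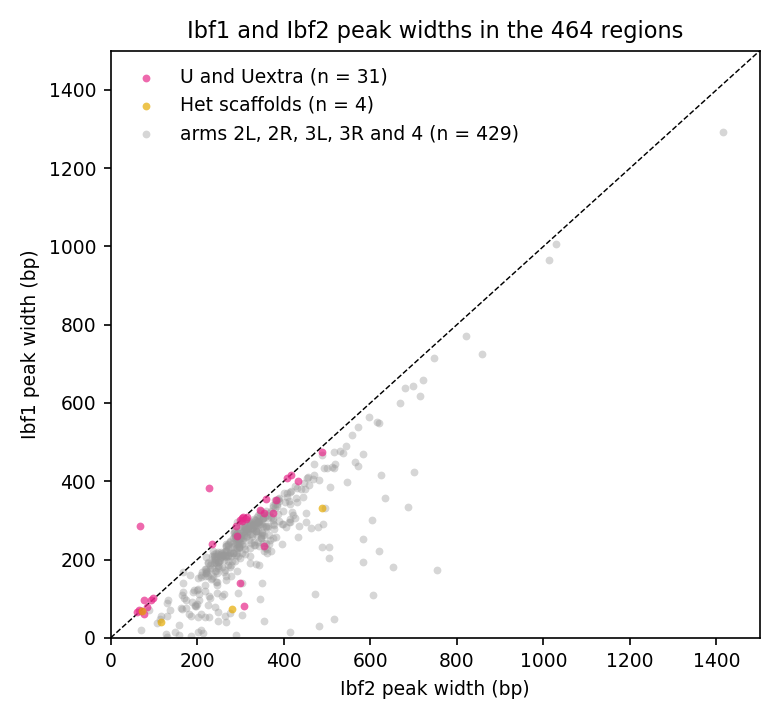
Ibf1 peak width (vertical axis, bp) against Ibf2 peak width (horizontal axis, bp) in the 464 regions, with the widest peak taken where a list had 2 and the dashed line marking equal widths. The 31 regions of U and Uextra lie mostly on the line (median ratio 0.99), and the 429 on the placed arms lie mostly below it (median ratio 0.80).

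Several of the unplaced regions were short. In U and Uextra 6 of 31 regions spanned 100 bp or less (19.4%, 7.45 to 37.5), against 0 of 429 on the placed arms (exact upper limit 0.856%). In Uextra at 10240761 to 10240836 the peaks measured 65 bp for Ibf1, 62 bp for Ibf2 and 60 bp for CP190, and at 10890866 to 10890937 they measured 71, 66 and 52 bp. The single region on 2RHet, at 2610804 to 2610886, was of the same kind, with 69 bp for Ibf1, 72 bp for Ibf2 and 70 bp for CP190. Longer Uextra regions could match as closely, as at 18119393 to 18119808, where the widths were 409, 407 and 406 bp for Ibf1, Ibf2 and CP190. The 3 regions on 3RHet were unlike these, with Ibf1 peaks of 40, 73 and 333 bp beside Ibf2 peaks of 116, 280 and 488 bp.

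The 4 large autosome arms carried the regions at similar rates. There were 87 on 2L, 103 on 2R, 110 on 3L and 121 on 3R, or 3.93, 4.92, 4.66 and 4.35 per Mb between the first and last region called on the arm. As a share of all regions with CP190 they made up 24.1% on 2L (87 of 361, 19.8 to 28.9), 26.0% on 2R (103 of 396, 21.8 to 30.6), 26.6% on 3L (110 of 413, 22.4 to 31.2) and 24.4% on 3R (121 of 495, 20.7 to 28.5). These shares lay close to the 26.8% of all CP190 regions outside X that held both Ibf proteins (464 of 1734). On chromosome 4, the small and largely heterochromatic autosome, 8 of 13 CP190 regions held both Ibf proteins (61.5%, 31.6 to 86.1). That interval lay above the values of the 4 large arms but rests on 13 regions. Counted among regions of every class, chromosome 4 had 8 of 17 (47.1%, 23.0 to 72.2), an interval that includes the values of 2R (23.4%) and 3L (25.2%). In Uextra 27 of 37 CP190 regions held both Ibf proteins (73.0%, 55.9 to 86.2), and on 3RHet 3 of 4 did. None of these differences was tested.

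Chromosome 4 also had broad CP190 peaks among the 8 regions, with a median of 413 bp (lowest 219, highest 802), against medians of 307 to 340 bp on the 4 large arms. Its Ibf1 peaks had a median of 223 bp, within the 219 to 268 bp of the medians of the large arms. Among those arms 2L had the narrowest Ibf1 peaks, with a median of 219 bp (n = 87), and 2R the widest, with 268 bp (n = 103).

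Along the 4 large arms the share of CP190 regions with both Ibf proteins ran between 20.1% and 29.9%. Each arm was divided into 5 equal lengths between its first and last called region. From the telomeric to the centromeric segment the share was 20.1% (79 of 394, 16.2 to 24.4), 24.8% (82 of 330, 20.3 to 29.9), 27.0% (80 of 296, 22.1 to 32.5), 26.1% (89 of 341, 21.5 to 31.1) and 29.9% (91 of 304, 24.8 to 35.4). The telomeric segment of 2L stood lowest, where 10 of 92 regions held all 3 proteins (10.9%, 5.34 to 19.1), while the telomeric segments of 2R, 3L and 3R had 22.5%, 23.3% and 22.7%. Without 2L the pooled shares were 22.8%, 22.7%, 26.5%, 26.2% and 31.0% in the same order. The highest single value was in the centromeric segment of 3L (25 of 67, 37.3%, 25.8 to 49.99). Neighbouring intervals overlapped, and the differences along the arms were not tested.

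**Figure D4:**
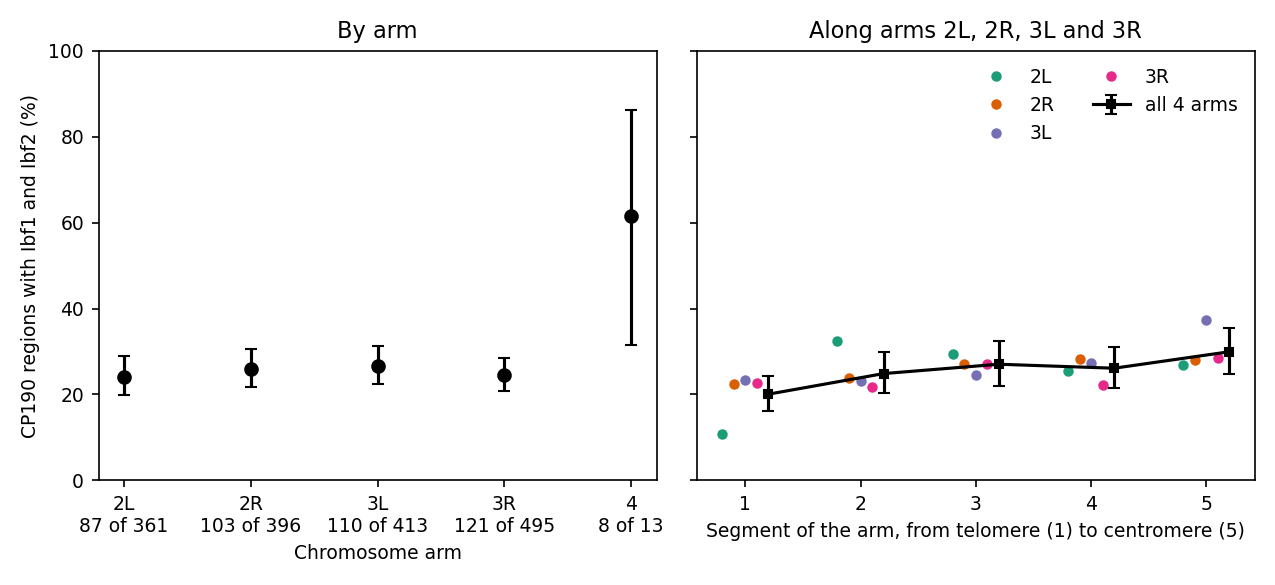
Percent of regions with CP190 that also held Ibf1 and Ibf2, by arm (left, with counts) and by segment of the arm, 5 per arm, from telomere to centromere (right), where bars are 95% exact binomial intervals and coloured points are single arms. The 4 large arms lie between 24.1% and 26.6%, chromosome 4 lies at 61.5% with a wide interval, and the pooled segments run between 20.1% and 29.9%.

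The regions were spread along the arms with few close pairs. A region with all 3 proteins lay a median of 69.9 kb from the nearest other such region (interquartile range 30.0 to 158.6 kb, n = 463 with another on the same chromosome or scaffold). On the placed arms the median was 68.2 kb, and 20 of 429 regions (4.66%, 2.87 to 7.11) had another within 5 kb. Regions with CP190 alone lay a median of 22.2 kb from the nearest of their own kind on the placed arms, but they were also more numerous (1170).

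Distances to a neighbour of any class were also compared. With CP190 and both Ibf proteins, 81 of 429 regions on the placed arms had a neighbour of any class within 5 kb (18.9%, 15.3 to 22.9), against 235 of 1170 with CP190 alone (20.1%, 17.8 to 22.5) and 20.3% of all 1821 regions there. Within 10 kb the shares were 31.5% (27.1 to 36.1) and 37.0% (34.2 to 39.8), against 35.5% of all. The median distance to a neighbour of any class was 19.2 kb for regions with all 3 proteins and 14.3 kb for regions with CP190 alone. The shares within 5 kb lay near the background. Within 10 kb the interval for regions with all 3 proteins included the background of 35.5%. Their median of 19.2 kb stood beside 15.5 kb for all regions on the placed arms. None of the differences in distance was tested.

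**Figure D5:**
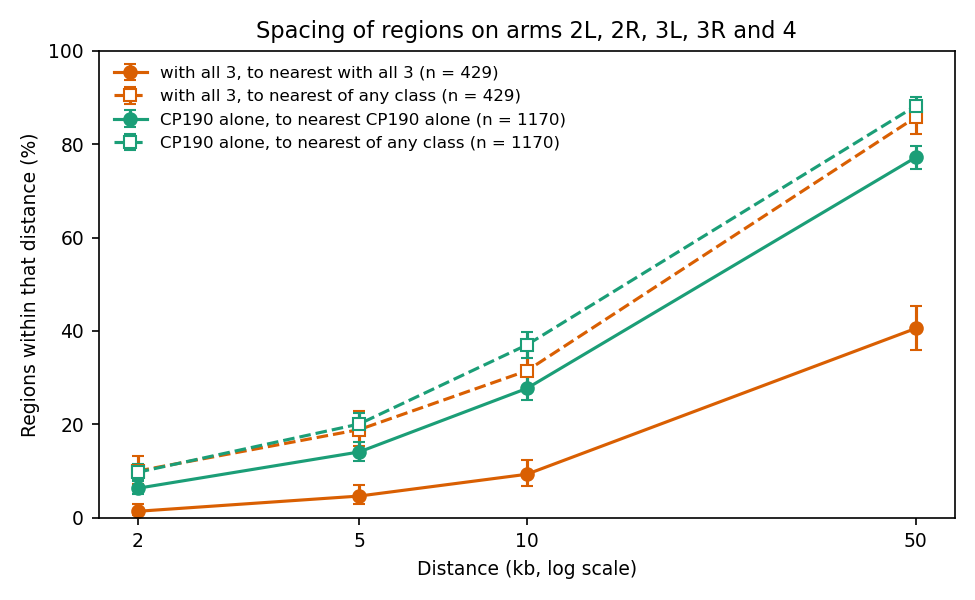
Percent of regions (vertical axis) that had another region within 2, 5, 10 or 50 kb (horizontal axis, log scale) on arms 2L, 2R, 3L, 3R and 4, for regions with all 3 proteins (orange) and CP190 alone (green), with 95% exact binomial intervals. Distances to the same class (filled circles) differ with the number of regions in the class, and distances to any class (open squares) give 18.9% and 20.1% within 5 kb and 31.5% and 37.0% within 10 kb.

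The nearest neighbour of a region with all 3 proteins was most often a region with CP190 alone. That class made up 1170 of the 1821 regions on the placed arms. On the placed arms the nearest region held CP190 alone in 254 of 429 cases (59.2%, 54.4 to 63.9) and all 3 proteins in 109 (25.4%, 21.4 to 29.8). For regions with CP190 alone, the nearest region held CP190 alone in 798 of 1170 cases (68.2%, 65.5 to 70.9). Their nearest region held all 3 in 235 cases (20.1%, 17.8 to 22.5). Over all regions on the placed arms the nearest region held all 3 in 22.3%. For the 429 regions, the share of 25.4% with all 3 in the nearest region was thus near the background of 22.3%. It was also near the 23.6% of placed regions that held all 3 proteins. Read along each arm, 235 of the 429 had a region of another class on both sides or the arm's end. There were 56 runs of 2, 16 of 3, 6 of 4 and 2 of 5. Such counts depend on how common the class is, and no background was computed for them. The runs of 5 lay on 2L between 5270260 and 5724317 and on 2R between 4519309 and 4802178.

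The 5 closest pairs lay 576 to 2181 bp apart and differed in make-up. In Uextra 576 bp separated the regions at 10240761 to 10240836 and 10241413 to 10241780, although neighbours there need not be neighbours in the genome. On 2R 875 bp separated 8557690 to 8557937 from 8558813 to 8559169, with Ibf1 peaks of 195 and 117 bp, Ibf2 peaks of 248 and 191 bp and CP190 peaks of 154 and 357 bp. On 3L 1199 bp separated 20473060 to 20473308 from 20474508 to 20474810, both with CP190 peaks (49 and 91 bp) narrower than their Ibf1 peaks. On 3R 1990 bp separated a nearly equal pair, 6500862 to 6501256 and 6503247 to 6503657, with Ibf1 peaks of 309 and 314 bp, Ibf2 peaks of 357 and 362 bp and CP190 peaks of 395 and 386 bp. Another pair on 3R lay 2181 bp apart, at 2532098 to 2532411 and 2534593 to 2534948.

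At the other extreme, the 3 regions farthest from any other lay in U and Uextra, where position has little meaning. On the placed arms the longest stretch between neighbouring regions with all 3 proteins was 1431 kb on 3L, from 11602885 to 13034361, followed by 1287 kb on the same arm, from 21646286 to 22933300, and 1177 kb on 3R, from 13745133 to 14921896.

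The 1 Mb window richest in these regions was 3R from 12 to 13 Mb, with 12 of its 28 regions, against a median of 4 per window (interquartile range 3 to 6) over the 99 windows that held any region. It also held 11 regions with CP190 alone. The 12 regions were spread through the window rather than paired, the closest being 30.8 kb apart, at 12450346 to 12450794 and 12481569 to 12482256. Their Ibf1 peaks ranged from 33 bp, at 12694952 to 12695273, to 716 bp, at 12086067 to 12086951. In 10 of the 12 the CP190 peak was the widest, against 251 of all 429 on the placed arms (58.5%, 53.7 to 63.2). The 12 are part of the 429 and few, and the difference was not tested. The exceptions lay at 12399511 to 12399956 (396, 446 and 360 bp for Ibf1, Ibf2 and CP190) and 12481569 to 12482256 (335, 688 and 646 bp). The window from 4 to 5 Mb on 2R followed with 11 of 22 regions, and 3 of the 99 windows held none.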

How the data were processed

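The deposited files listed peaks of the Ibf1 (CG8436), Ibf2 (CG9740) and CP190 libraries as a chromosome, a start and an end, with no score or count. Per the series' design text, the authors called peaks against 1 Input library, whose reads were not analysed here. The submitters' processing notes name the build dm3 and the software CASAVA 1.8.2. For the aligner, peak caller and thresholds, a statement is not given in the sources used here. A peak's width depends on those thresholds as well as on the signal, and depth is unknown.

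Intervals were taken as closed, so a width is 1 bp more than the end minus the start, and positions are printed as deposited, with the origin of counting unknown. Where a region held 2 peaks of a list, the wider gave its width and midpoint. Distances run edge to edge. Symbols were matched in a RefSeq gene table of Release 6, whose coordinates were not used. Shares carry 95% exact (Clopper-Pearson) intervals. No test was made. The code was tested on simulated peaks. Software comprised Python 3.11.15 with SciPy 1.17.1, pandas 2.3.3, NumPy 2.4.6 and matplotlib 3.10.9.

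Regions were named by a rule: the 8 with the largest smallest-of-3 width, 3 with the shortest shared stretch, the 3 nearest misses, 3 with the largest Ibf1 to CP190 offset, the widest on each chromosome, those with repeated peaks, the 5 closest pairs, the 3 most isolated and the richest window. Unplaced and Het regions, gaps, runs, the fourth bridged region and window members were chosen after their values were seen. The regions and rules were chosen with earlier results of these data known.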

Additional observations from a re-analysis of the deposited data

How the results depend on the processing

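With 18 values recomputed under 7 alternatives (midpoints within 250 bp, each pair of peaks overlapping by 50% of the shorter, peaks within 500 bp merged, half-open intervals, peaks under 50 bp left out, placed arms alone, exactly 1 peak of each list), 125 of 126 stayed within the 95% interval of the value reported or, for the number of regions, within 1.5 times it. The exception was the share of regions with the Ibf1 peak inside the Ibf2 peak, 94.3% in all and 97.9% on the placed arms alone, where the 35 unplaced and Het regions are left out. Some of the 126 could not move, because the alternative kept the same regions. These included the shares per arm under placed arms alone, and the nesting shares under exactly 1 peak of each list. Half-open intervals also gave 464 regions, with midpoint offsets and nesting shares unchanged. For a given set of regions that reading alters neither a midpoint difference nor containment, and it shifts a width by only 1 bp. The number of regions ran from 429 to 466, against 464, so the alternatives kept largely the same regions. No paired analysis was possible because each antibody had 1 library, and no library could be left out. Depth and peak height are unknown, so a missing peak is not evidence that a protein was absent.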
